A study of Mus musculus with 32 samples.

Results

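Genes of prostaglandin E2 synthesis and reception were followed across 8 groups of mouse brain tumour cultures. Of 10 listed members, 9 were among the 19938 genes with a probe set of their own. The list was made by function: the arachidonate-releasing phospholipase Pla2g4a, the cyclooxygenases Ptgs1 and Ptgs2, the prostaglandin E synthases Ptges, Ptges2 and Ptges3, and the receptors Ptger1, Ptger2, Ptger3 and Ptger4. Ptgs1 was not analysed here, because the platform annotation used paired no probe set with it.

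Prostaglandin E2 is a lipid signal that cells make on demand. Cytosolic phospholipase A2 (Pla2g4a) frees arachidonic acid from membranes, a cyclooxygenase turns it into prostaglandin H2, and a prostaglandin E synthase turns that into prostaglandin E2, which leaves the cell and acts on its own or neighbouring cells. Ptgs1 is the constitutive cyclooxygenase and Ptgs2 (COX-2) the inducible one, which growth factors and cytokines switch on. Ptges is likewise inducible and often works with Ptgs2. Ptger2 and Ptger4 are coupled to a rise of cyclic AMP, Ptger3 mainly to its fall, and Ptger1 to calcium. The pathway is known in the brain for fever, inflammation and the growth of gliomas.

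The 32 neurosphere cultures each gave RNA for 1 Affymetrix Mouse Gene 1.0 ST array, read as log2 RMA values. Neurosphere cells from the lateral ventricle wall of postnatal mice received oncogenes and were transplanted into the brain, and cells that still carried the transgene with its fluorescent marker were sorted from the resulting tumours and cultured. All 8 groups came from strain B6;129-Trp53tm1Brd, named for a mutant allele of the p53 gene Trp53. The strain name does not say whether both copies carried it. No culture without an added oncogene was analysed here. MYC then HRAS (n = 2) and HRAS then MYC (n = 2) cultures received their oncogenes consecutively. HRAS+MYC cultures (n = 7) came from tumours like atypical teratoid/rhabdoid tumours (AT/RT). HRAS+Bmi1 (n = 2) and HRAS (n = 5) cultures came from gliomas. MYC+Ezh2 (n = 5), MYC+Bmi1 (n = 3) and MYC (n = 6) cultures came from primitive neuroectodermal tumours (PNET). Bmi1 and Ezh2 are Polycomb proteins that silence genes. The titles number the arrays of a group without saying that they came from separate tumours, so the p-values measure the spread between these cultures, which may be technical.

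The array medians lay between 5.59 and 5.79 and no array stood apart in scale. Cell markers set MYC replicates 4 and 5 off from their group, with Neurod1, a factor of neuronal differentiation, at 10.55 and 10.83, against 3.39 to 3.85 in the other 4, and Sox2, a neural stem cell factor, at 4.84 and 6.62, against 10.74 to 11.58. The calls of Ptgs2, Ptges and Ptger4 for HRAS, HRAS+MYC and MYC then HRAS against MYC were the same without them, and any difference of Pla2g4a or Ptger3 from MYC cultures is printed with and without them. HRAS replicate 3 also stood apart from its group. Its mean over 6 neuron markers was 6.90, against 5.40 to 5.81 in the other HRAS cultures. Over 6 neural stem and progenitor markers it was 9.37, against 8.29 to 8.56. Without HRAS replicate 3 the calls of Ptgs2, Ptges and Ptger4 for HRAS against MYC were the same. All tests are 2-sided limma tests from 1 fit of the 8 group means, with Benjamini-Hochberg adjustment over all 19938 genes, and genes at adjusted p under 0.05 passed. Differences are log2 units with the standard error of the fit. Levels of different genes come from different probes and are not set against each other.

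Pla2g4a, the first enzyme of the route, was expressed in all groups with added HRAS and varied most within groups that had MYC alone or with a Polycomb gene. It measured 9.96 and 8.92 in MYC then HRAS cultures, 8.64 and 7.74 in HRAS then MYC cultures, 8.68 and 8.04 in HRAS+Bmi1 cultures, and 8.03, 8.71, 8.62, 8.98 and 8.05 in HRAS cultures. In HRAS+MYC cultures it ran from 6.53 through a median of 9.44 to 9.62, with replicate 1 alone at the low end. In contrast it measured 7.70, 7.58, 5.58, 8.45 and 4.23 in MYC+Ezh2 cultures and 7.47, 4.69 and 4.91 in MYC+Bmi1 cultures. The 6 MYC cultures gave 9.50, 9.91, 8.79, 4.26, 4.90 and 6.94, a range almost as wide as that of the whole series. Neighbours in the order of the 8 means overlapped in every case, and Pla2g4a passed in none of the 13 comparisons. Groups further apart in that order did not always overlap. The HRAS+Bmi1 arrays lay above those of MYC+Bmi1, by 2.67 ± 1.31 (adjusted p = 0.196). The MYC then HRAS arrays lay above those of HRAS then MYC, by 1.25 ± 1.43 (adjusted p = 0.873). For HRAS+MYC against MYC the difference was 1.59 ± 0.80 (adjusted p = 0.130). It was 2.09 (adjusted p = 0.0428) without MYC replicate 2, 0.96 (adjusted p = 0.369) without replicate 4 and 0.19 (adjusted p = 0.882) without MYC replicates 4 and 5.

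Ptgs2, the inducible cyclooxygenase, varied most of the members, with group means 7.71 log2 units apart. Its promoter is shown because this gene carried the largest differences of the set, and the bases of 2 motif matches are in capitals. The window is RefSeq's, in build GRCm38.p6, from 250 bases before to 50 bases after the annotated start, at chr1:150099781-150100080 on the plus strand.
Ptgs2: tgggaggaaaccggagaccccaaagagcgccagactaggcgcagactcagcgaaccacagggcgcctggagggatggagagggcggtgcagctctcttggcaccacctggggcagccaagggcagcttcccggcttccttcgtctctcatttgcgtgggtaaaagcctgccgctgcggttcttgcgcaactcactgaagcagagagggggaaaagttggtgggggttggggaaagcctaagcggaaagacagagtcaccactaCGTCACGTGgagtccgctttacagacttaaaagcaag
The capitals hold the letters CACGTG (E-box, the site that MYC and other basic helix-loop-helix factors can bind) and, overlapping them by 2 bases and read on the other strand, TGACG (the core of the cyclic AMP response element, CRE). Both matches lie after the annotated start, not before it. In the printed order the TGACG match begins 13 bases and the CACGTG match 16 bases past it. On both strands, CACGTG occurred in 7.15% and TGACG in 20.8% of 32851 RefSeq windows of this length. No match was found in this window to TGANTCA (AP-1, 7.81% of windows), TATAAA (which the general factor TFIID binds, 13.6%) or GGGNNTTTCC (NF-kB, 1.63%). Such a match is a description of letters, not of a bound site.

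In HRAS+MYC cultures Ptgs2 ran from 11.93 through a median of 12.83 to 13.19. It measured 11.78 and 11.35 in MYC then HRAS cultures, 9.85 and 8.79 in HRAS then MYC cultures, 7.47 and 7.12 in HRAS+Bmi1 cultures and 8.89, 11.44, 9.15, 7.98 and 9.66 in HRAS cultures. All 7 HRAS+MYC cultures lay above every other culture of the series, and HRAS replicate 2 alone among the gliomas fell inside the range of the MYC then HRAS pair. Without added HRAS, Ptgs2 measured 4.86, 4.89, 5.17, 5.08 and 4.99 in MYC+Ezh2 cultures and 4.86, 5.13 and 5.40 in MYC+Bmi1 cultures. The 6 MYC cultures ran from 5.06 through a median of 5.45 to 6.13. The 18 cultures with HRAS (lowest 7.12) did not overlap the 14 without it (highest 6.13), and the same held for Ptges, described below. Of all genes, 1.74% lay wholly higher and 0.873% wholly lower in the cultures with HRAS.

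In descending order of Ptgs2 the groups were HRAS+MYC, MYC then HRAS, HRAS, HRAS then MYC, HRAS+Bmi1, MYC, MYC+Bmi1 and MYC+Ezh2. Neighbours whose arrays overlapped were MYC then HRAS with HRAS, HRAS with HRAS then MYC, and the 3 groups without HRAS among themselves. Ptgs2 averaged 12.70 ± 0.42 in HRAS+MYC cultures, against 5.56 ± 0.43 in MYC cultures (SD, n = 7 and 6), a difference of 7.14 ± 0.33 (adjusted p = 1.59e-15). The MYC mean lies close to the array medians and the files hold no detection values, so no linear fold is given. Against HRAS alone, where Ptgs2 averaged 9.42 ± 1.28 (SD, n = 5), HRAS+MYC cultures were 3.28 ± 0.35 higher (adjusted p = 9.59e-08), and HRAS cultures were themselves 3.86 ± 0.36 above MYC cultures (adjusted p = 2.52e-09). In a bulk culture, fewer cells that express a gene and less of its RNA per cell cannot be told apart.

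**Figure D1:**
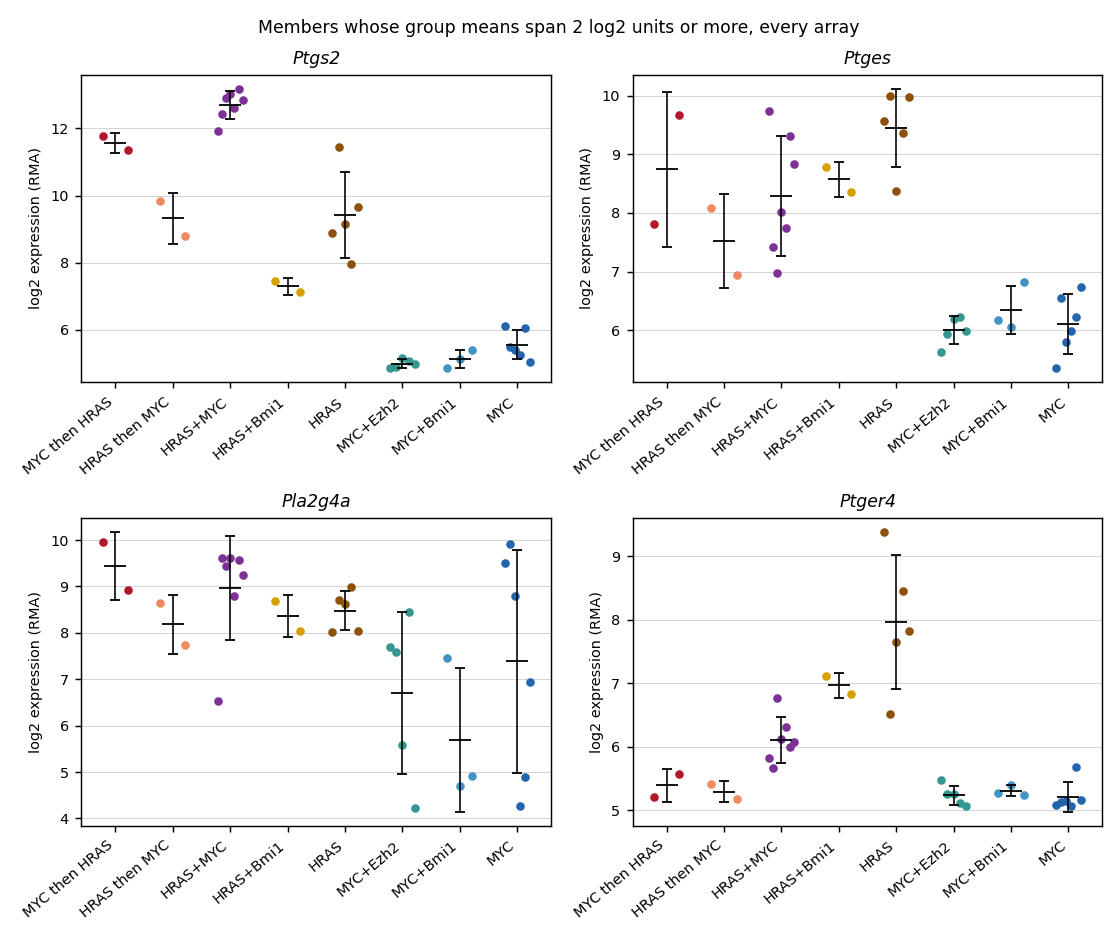
Log2 RMA value (vertical axis) of Ptgs2, Ptges, Pla2g4a and Ptger4 in each culture (points) of the 8 groups, with the group mean and SD (bars). Ptgs2 lies at 7.12 or above in all 18 cultures with HRAS and at 6.13 or below in the 14 without, Ptger4 is highest in HRAS cultures, and Pla2g4a overlaps between all neighbouring groups.

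Ptges, the inducible prostaglandin E synthase, was also higher wherever HRAS had been added, but its highest group was HRAS alone. The HRAS cultures measured 9.57, 9.999, 8.37, 9.37 and 9.97, the MYC then HRAS cultures 7.81 and 9.67, and the HRAS+Bmi1 cultures 8.79 and 8.36. HRAS+MYC cultures ran from 6.97 through a median of 8.01 to 9.74, and HRAS then MYC cultures measured 8.08 and 6.95. MYC+Bmi1 cultures measured 6.17, 6.06 and 6.81, MYC+Ezh2 cultures 5.64, 5.94, 6.19, 6.23 and 5.98, and the 6 MYC cultures ran from 5.35 through a median of 6.10 to 6.74. The gap between the cultures with and without HRAS was small, 6.95 against 6.81, and within the cultures with HRAS neighbouring groups overlapped.

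Ptges was 3.35 ± 0.41 higher in HRAS than in MYC cultures (adjusted p = 2.89e-07), and 2.19 ± 0.38 higher in HRAS+MYC than in MYC cultures (adjusted p = 3.97e-05). Between HRAS+MYC and HRAS cultures it went the other way from Ptgs2 and fell by 1.16 ± 0.40 in HRAS+MYC (adjusted p = 0.0327). That last call was lost without any 1 of HRAS+MYC replicates 2, 3, 4 and 5 or HRAS replicates 1, 2, 4 and 5 (adjusted p 0.0534 to 0.0882) and with only these 2 groups in the fit (adjusted p = 0.0893). The Ptges window, at chr2:30903248-30903547 on the minus strand of GRCm38.p6, is shown beside that of Ptgs2 because both genes separated the cultures with and without HRAS. It held none of the 5 motifs, hence no capitals.
Ptges: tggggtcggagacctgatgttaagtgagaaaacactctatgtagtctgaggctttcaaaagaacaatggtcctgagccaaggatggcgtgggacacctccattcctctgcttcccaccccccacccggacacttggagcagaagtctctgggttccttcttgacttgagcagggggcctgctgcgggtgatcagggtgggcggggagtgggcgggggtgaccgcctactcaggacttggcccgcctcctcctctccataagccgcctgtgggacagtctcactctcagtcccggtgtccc

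Of the other prostaglandin E synthases, Ptges2 hardly moved, and the size of the Ptges3 differences depended on the probe set. Ptges2, a membrane-bound synthase, lay between 7.48 and 8.44 over all cultures, with group means 0.42 apart, and passed in none of the 13 comparisons. Ptges3, the Hsp90 co-chaperone p23 that also acts as a cytosolic synthase, had group means 0.37 apart on the probe set used, that with the highest mean. It averaged 12.99 ± 0.01 in HRAS then MYC cultures, against 12.61 ± 0.12 in HRAS cultures (SD, n = 2 and 5), a difference of 0.37 ± 0.13 (adjusted p = 0.0576). This difference passed in 7 of the alternatives, among them the probe set with the highest variance, on which it was 0.75 (adjusted p = 0.000626). On that probe set Ptges3 was also 0.58 higher in HRAS then MYC than in HRAS+MYC cultures (adjusted p = 0.00399). Ptges3 has 3 probe sets, whose values correlated over the 32 arrays at r between 0.774 and 0.987, and RefSeq lists a pseudogene, Ptges3-ps, so its values are uncertain.

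Ptger4, which raises cyclic AMP, had the widest span of group means among the receptors (2.75), and it was highest in HRAS gliomas. The HRAS cultures measured 9.39, 6.51, 7.65, 8.46 and 7.83, and the HRAS+Bmi1 cultures 7.11 and 6.83. HRAS+MYC cultures ran from 5.67 through a median of 6.08 to 6.78. With HRAS and MYC given consecutively, Ptger4 measured 5.21 and 5.58 (MYC then HRAS) and 5.42 and 5.18 (HRAS then MYC), inside the range of the cultures without HRAS. Those were 5.47, 5.25, 5.26, 5.12 and 5.08 in MYC+Ezh2 cultures, 5.27, 5.40 and 5.25 in MYC+Bmi1 cultures, and 5.07 through a median of 5.14 to 5.69 in MYC cultures.

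Ptger4 was 2.75 ± 0.28 higher in HRAS than in MYC cultures (adjusted p = 1.42e-08), and the arrays did not overlap. In HRAS+MYC cultures it rose by 0.90 ± 0.26 relative to MYC cultures (adjusted p = 0.00792) and fell by 1.85 ± 0.27 relative to HRAS cultures (adjusted p = 1.15e-05), with arrays that overlapped narrowly on both sides. Within the HRAS group, replicate 2 had the highest Ptgs2 (11.44) and the lowest Ptger4 (6.51), while replicates 1 and 4 had the highest Ptger4 (9.39 and 8.46) and the lowest Ptgs2 (8.89 and 7.98). Over all 32 arrays, after each group's mean was taken off, the 2 genes correlated at r = -0.491, a description over arrays that share groups. The Ptger4 window, at chr15:5244138-5244437 on the minus strand of GRCm38.p6, is given because Ptger4, like Ptgs2 and Ptges, passed as higher in HRAS than in MYC cultures. The window held none of the 5 motifs.
Ptger4: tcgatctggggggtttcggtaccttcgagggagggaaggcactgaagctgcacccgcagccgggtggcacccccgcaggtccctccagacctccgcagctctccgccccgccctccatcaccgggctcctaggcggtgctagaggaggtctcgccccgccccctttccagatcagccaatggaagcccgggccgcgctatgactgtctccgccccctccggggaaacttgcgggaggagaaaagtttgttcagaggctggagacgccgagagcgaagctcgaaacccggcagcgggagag

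Ptger3, which lowers cyclic AMP, was high in a few cultures started from MYC and low elsewhere. The MYC cultures measured 4.44, 4.11, 4.64, 8.19, 8.49 and 4.26. MYC then HRAS cultures measured 5.20 and 6.60, MYC+Bmi1 cultures 4.79, 4.26 and 6.46, and MYC+Ezh2 cultures 4.48, 4.56, 6.39, 5.57 and 4.66. MYC replicates 4 and 5, the Neurod1-high and Sox2-low cultures, thus carried the highest values, and the same cultures had the lowest Pla2g4a of their group (4.26 and 4.90). The cultures with the next highest Ptger3 had low Neurod1. It was 3.40 in MYC then HRAS replicate 2, 3.37 in MYC+Bmi1 replicate 3 and 3.27 in MYC+Ezh2 replicate 3. MYC+Bmi1 replicate 1 had Neurod1 at 7.87 but Ptger3 at 4.79. In HRAS cultures Ptger3 measured 4.28, 4.11, 3.73, 4.16 and 4.14, and it did not exceed 4.78 in HRAS+MYC cultures, 4.24 in HRAS then MYC cultures or 4.06 in HRAS+Bmi1 cultures. In HRAS relative to MYC cultures Ptger3 fell by 1.61 ± 0.62 (adjusted p = 0.0470), but the difference was -0.28 (adjusted p = 0.635) without MYC replicates 4 and 5. The call was also lost without either of those arrays or any 1 of the 5 HRAS arrays, with only these 2 groups in the fit (adjusted p = 0.200) and with arrays centred on their medians (adjusted p = 0.0524). For MYC then HRAS against MYC, Ptger3 differed by 0.21 ± 0.84 (adjusted p = 0.899), and by 1.54 (adjusted p = 0.0174) without MYC replicates 4 and 5.

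**Figure D2:**
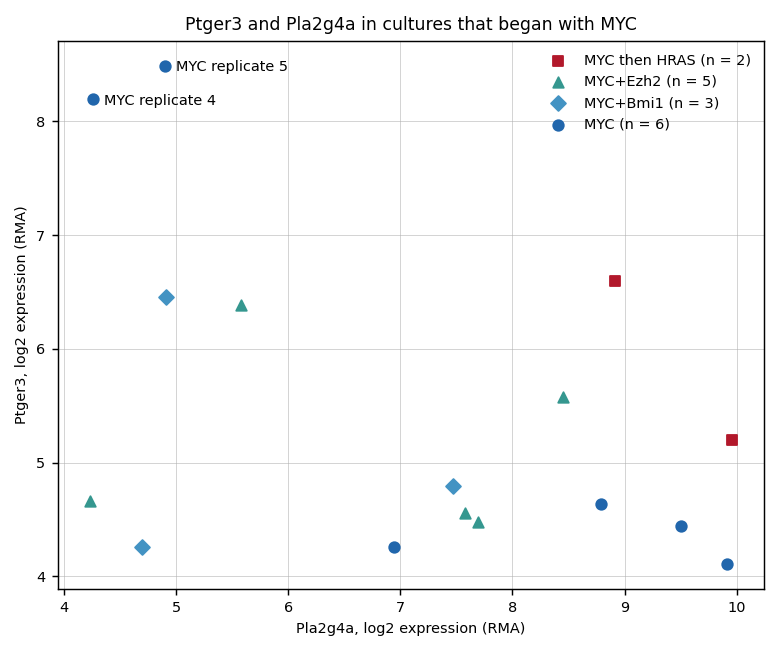
Log2 RMA value of Ptger3 (vertical axis) against that of Pla2g4a (horizontal axis) in each culture whose first oncogene was MYC, marked by group. MYC replicates 4 and 5 sit at the upper left, with Ptger3 at 8.19 and 8.49 and Pla2g4a at 4.26 and 4.90. The MYC then HRAS cultures sit to the right with Pla2g4a at 8.92 or above, as do MYC replicates 1, 2 and 3 at 9.50, 9.91 and 8.79.

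Over all 32 arrays Pla2g4a and Ptger3 correlated at r = -0.518, and at r = -0.581 after group means were taken off. Olig2, a factor of the oligodendrocyte lineage, was low in the MYC cultures with high Ptger3 (5.02 and 5.17) and lay between 9.49 and 10.57 in the other 4. Outside the MYC group, Olig2 was low both with raised and with low Ptger3. It was 5.14 in MYC then HRAS replicate 2 (Ptger3 6.60) and 4.84 in MYC+Bmi1 replicate 2 (Ptger3 4.26). The mean over 5 oligodendrocyte lineage markers was 5.45 and 5.60 in MYC replicates 4 and 5, against 7.92 to 8.49 in the other MYC cultures. The part of this shift in the Ptger3 and Pla2g4a values was not tested.

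Ptger1 and Ptger2 varied little between cultures, apart from 1 culture with high Ptger2. Ptger1, the calcium-coupled receptor, lay between 5.69 and 6.24 over all arrays and passed in no comparison, with group means 0.21 apart. For HRAS+MYC against HRAS its difference of 0.19 ± 0.09 (adjusted p = 0.109) came to 0.27 (adjusted p = 0.0261) without HRAS replicate 1. Ptger2, the other cyclic AMP-raising receptor, lay between 4.03 and 4.74 in 31 of the 32 cultures. HRAS replicate 4 was the exception, at 6.58. Its group averaged 4.81 ± 1.01, against 4.32 ± 0.12 in MYC cultures (SD, n = 5 and 6), a difference of 0.49 ± 0.25 (adjusted p = 0.145), which was 0.051 (adjusted p = 0.804) without replicate 4.

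**Figure D3:**
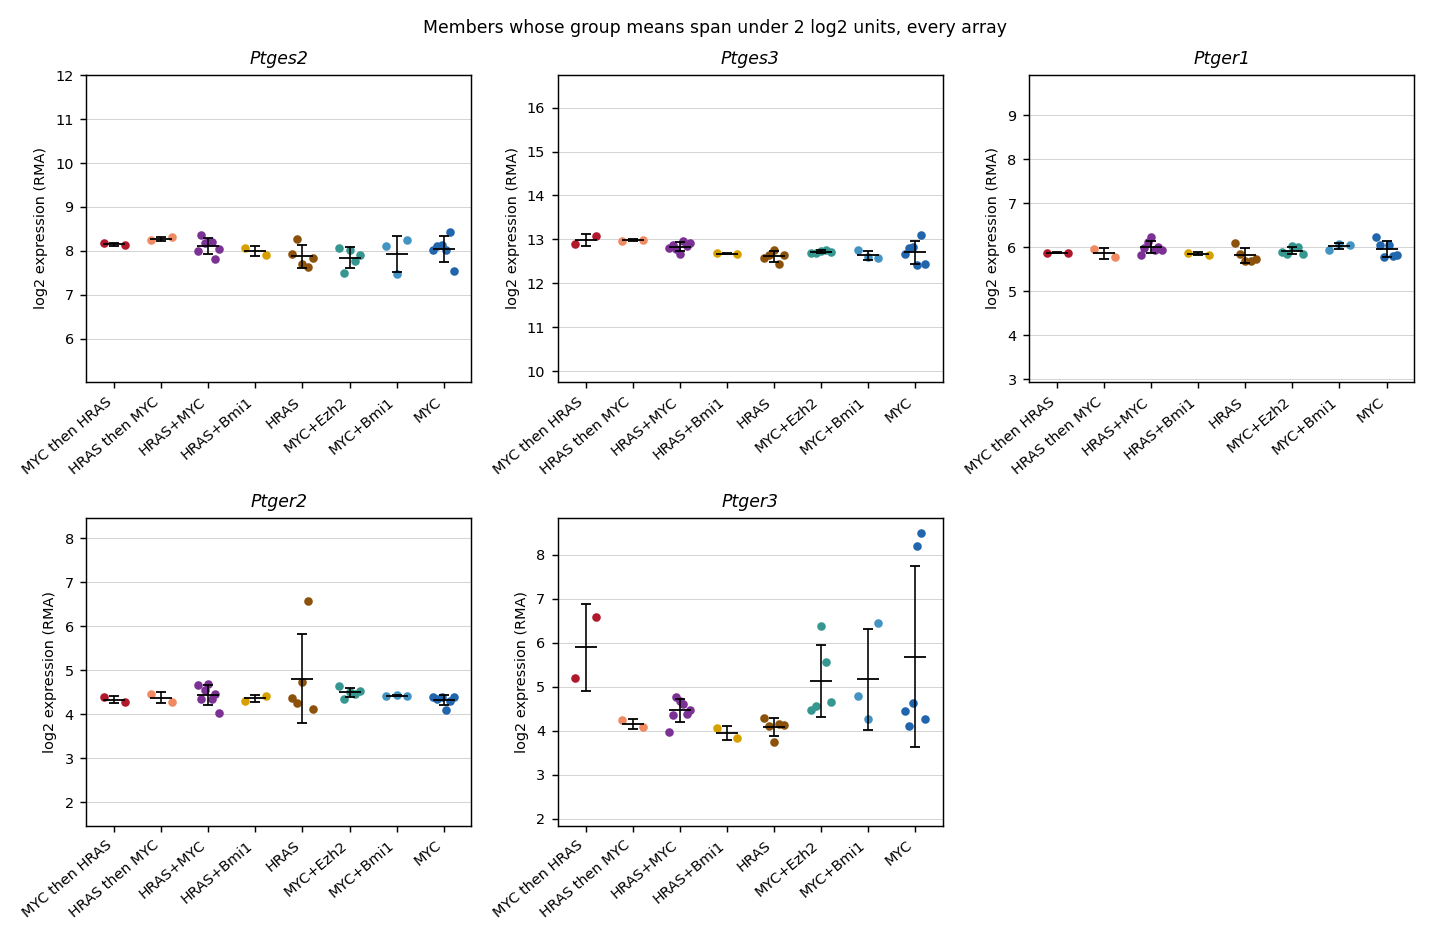
Log2 RMA value (vertical axis) of Ptges2, Ptges3, Ptger1, Ptger2 and Ptger3 in each culture (points) of the 8 groups, with the group mean and SD (bars). Ptger1 stays within 5.69 to 6.24, Ptger2 has 1 high culture at 6.58, and the highest Ptger3 values (8.19 and 8.49) are 2 MYC cultures.

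Set side by side, the comparisons of the oncogenes asked which members differ between gliomas, AT/RT-like tumours and PNET. For HRAS against MYC, Ptgs2, Ptges and Ptger4 rose and Ptger3 fell among the 9 members, where 15.4% of all genes rose and 18.0% fell. For HRAS+MYC against MYC, the same 3 members rose and none fell, where 15.8% of all genes rose and 18.4% fell. For HRAS+MYC against HRAS, Ptgs2 rose while Ptges and Ptger4 fell, where 11.7% rose and 13.0% fell. The median difference of the 9 members was 0.49, 0.13 and 0.22 in these comparisons, beside -0.03, 0.03 and 0.05 over all genes. The first of these medians was 0.051 without HRAS replicate 4 and -0.067 without MYC replicates 4 and 5. With every array centred on its own median, the split over all genes moved to 25.2% higher and 14.8% lower for HRAS+MYC against MYC and to 16.1% and 10.6% for HRAS+MYC against HRAS, and the median of all genes in HRAS+MYC against MYC moved by 0.11. These comparisons share their MYC, HRAS and HRAS+MYC arrays and are not independent of each other.

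**Figure D4:**
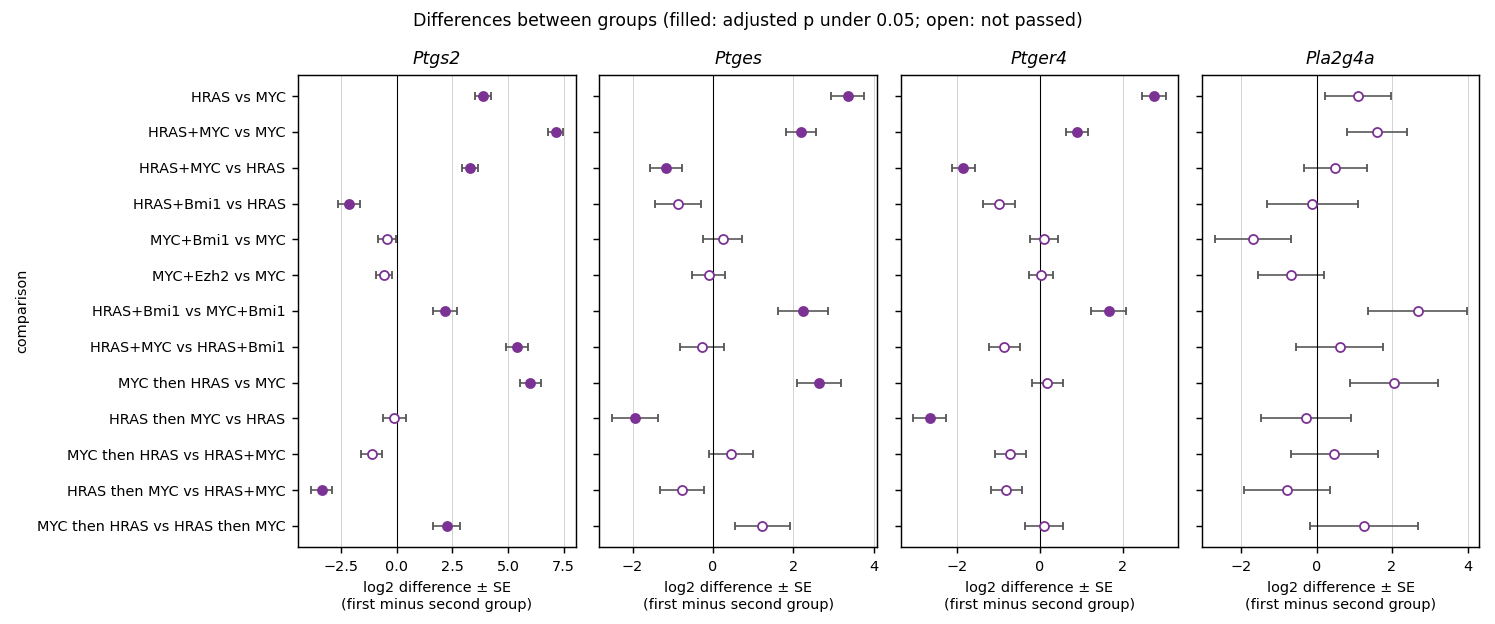
Log2 difference with its standard error (horizontal axis) of Ptgs2, Ptges, Ptger4 and Pla2g4a in the 13 comparisons of 2 groups, with filled points where the adjusted p was under 0.05. Ptgs2 spans the widest range, from 7.14 higher in HRAS+MYC than in MYC cultures to -3.38 for HRAS then MYC against HRAS+MYC cultures, while Pla2g4a has no filled point.

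The order in which HRAS and MYC were added went with different levels of Ptgs2. In MYC then HRAS cultures Ptgs2 averaged 11.57 ± 0.30, against 5.56 ± 0.43 in MYC cultures (SD, n = 2 and 6), a rise of 6.00 ± 0.49 (adjusted p = 6.45e-10). In HRAS then MYC cultures it averaged 9.32 ± 0.75, against 9.42 ± 1.28 in HRAS cultures (SD, n = 2 and 5), a difference of -0.10 with a 95% interval from -1.13 to 0.92. Relative to HRAS+MYC cultures, Ptgs2 in HRAS then MYC cultures fell by 3.38 ± 0.48 (adjusted p = 1.83e-05), with no overlap. Both MYC then HRAS cultures lay below all HRAS+MYC cultures too, but the difference of -1.13 ± 0.48 did not pass (adjusted p = 0.546). Between the orders themselves, MYC then HRAS was 2.25 ± 0.60 above HRAS then MYC (adjusted p = 0.0318). That call was lost without any 1 of 3 of the 4 arrays (adjusted p 0.142 to 0.507), all but HRAS then MYC replicate 1, and with the replicate number as a block (adjusted p = 0.0673).

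Among the other members, Ptges rose by 2.63 ± 0.56 in MYC then HRAS over MYC cultures (adjusted p = 0.000942), and by 1.70 (adjusted p = 0.138) without MYC then HRAS replicate 2. Ptger4 differed there by 0.18, with a 95% interval from -0.60 to 0.97. In HRAS then MYC against HRAS cultures, Ptger4 fell by 2.67 ± 0.39 (adjusted p = 4.56e-05) and Ptges by 1.94 ± 0.57 (adjusted p = 0.0232). With only these 2 groups in the fit neither passed (adjusted p = 0.0550 and 0.0573), and without HRAS then MYC replicate 2 Ptges fell by 1.38 (adjusted p = 0.400). Thus 2 of 9 members rose for MYC then HRAS against MYC, where 9.83% of all genes rose and 10.6% fell, and 2 of 9 fell for HRAS then MYC against HRAS, where 6.30% rose and 6.21% fell. Centred on array medians, the split was 12.6% higher and 8.34% lower for MYC then HRAS against MYC, and 12.4% and 4.53% for HRAS then MYC against HRAS, with the median of all genes moved by 0.15. For HRAS then MYC against HRAS+MYC, Ptgs2 alone passed, lower, where 6.89% rose and 5.17% fell (8.71% and 4.01% centred). For MYC then HRAS against HRAS then MYC it alone passed, higher, where 1.70% rose and 1.58% fell (1.37% and 2.36% centred). No member passed for MYC then HRAS against HRAS+MYC, where limma called 0.110% of all genes in either direction, and 1 member had an unadjusted p under 0.05.

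Added Bmi1 went with lower Ptgs2 in HRAS cells. Ptgs2 averaged 7.29 ± 0.25 in HRAS+Bmi1 cultures, against 9.42 ± 1.28 in HRAS cultures (SD, n = 2 and 5), a fall of 2.13 ± 0.50 (adjusted p = 0.00923), and both HRAS+Bmi1 cultures lay below all 5 HRAS cultures. The call was lost without either HRAS+Bmi1 array (differences of -2.31 and -1.95, adjusted p = 0.109 and 0.170) and with only these groups in the fit (adjusted p = 0.2145). It was the only member to pass, where 2.87% of all genes rose and 3.04% fell (2.13% and 3.97% centred). Ptger4 differed by -0.996 ± 0.392 (adjusted p = 0.149), and by -1.36 (adjusted p = 0.00813) without HRAS replicate 2. In MYC cells no member passed with added Bmi1, where limma called 0.150% of all genes, or with added Ezh2, where it called 0.246%, and none had an unadjusted p under 0.05. Cell type markers moved with the glioma comparison too. The mean over 6 neural stem and progenitor markers was 10.28 and 10.34 in HRAS+Bmi1 cultures, against 8.29 to 9.37 in HRAS cultures, and 3 of the 6 rose and none fell. Over 7 astrocyte markers it was 6.155 and 6.316, against 5.193 to 5.864, and over 8 endothelial markers 5.473 and 5.489, against 5.094 to 5.455. In each of these lists 1 rose and none fell. Over 9 fibroblast and pericyte markers the mean was lower, 5.698 and 5.97 against 6.053 to 6.631, and none passed. The means of the other lists overlapped. The part of these shifts in the Ptgs2 values was not tested. In MYC cells Ptgs2 differed from MYC cultures by -0.44 with Bmi1 (95% interval -1.30 to 0.43) and by -0.57 with Ezh2 (-1.31 to 0.17).

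The difference between the Bmi1 effects, HRAS cells minus MYC cells, was -1.70 ± 0.65 for Ptgs2 (adjusted p = 0.173) and -1.09 ± 0.51 for Ptger4 (adjusted p = 0.282). No member passed in this limma test, where 2.43% of all genes did, and 2 members had an unadjusted p under 0.05. Between the groups with Bmi1, Ptgs2, Ptges and Ptger4 rose in HRAS+Bmi1 over MYC+Bmi1 cultures by 2.17, 2.23 and 1.66 (adjusted p = 0.00712, 0.0150 and 0.00837), where 7.92% of all genes rose and 5.83% fell. All 3 calls were lost without HRAS+Bmi1 replicate 1 (adjusted p = 0.101, 0.159 and 0.112), and that of Ptges also without replicate 2 (0.0662). For HRAS+MYC against HRAS+Bmi1, Ptgs2 alone passed, 5.41 ± 0.48 higher (adjusted p = 6.25e-09), where 7.61% rose and 9.56% fell (16.0% and 7.29% centred, with the median of all genes moved by 0.16).

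The groups with high Ptgs2 also differed in cell type markers. The mean over 12 microglia and macrophage markers ran from 5.16 to 5.42 in HRAS+MYC cultures and from 4.87 to 5.28 in HRAS cultures, against 4.76 to 4.95 in MYC cultures. Of these 12, 2 rose and none fell for HRAS+MYC against MYC, and 2 rose and 1 fell for HRAS against MYC, beside 15.8% and 18.4%, and 15.4% and 18.0%, of all genes that rose and fell. Cd68, a lysosomal protein of macrophages that other cells also make, averaged 9.58 ± 0.96 in HRAS+MYC and 9.11 ± 1.59 in HRAS cultures, against 5.98 ± 0.43 in MYC cultures (SD, n = 7, 5 and 6). Aif1 and Csf1r, also of these 12, averaged 4.36 and 4.55 in HRAS+MYC, 4.30 and 4.41 in HRAS and 4.29 and 4.44 in MYC cultures. These named genes do not stand for the whole list. Its mean was higher in HRAS+MYC than in MYC cultures, but the median difference of the 12 markers was only 0.10, beside 0.03 for all genes. The large difference of Cd68 thus weighs on that mean. The mean over 6 neuron markers ran from 5.73 to 6.21 in HRAS+MYC and 5.40 to 6.90 in HRAS cultures, against 7.16 to 9.33 in MYC cultures, and 5 of the 6 fell for either against MYC. The mean over 8 endothelial markers ran from 5.053 to 5.60 in HRAS+MYC and 5.09 to 5.46 in HRAS cultures, against 4.87 to 5.048 in MYC cultures, with 1 and 2 of the 8 higher and none lower. Among 5 oligodendrocyte lineage markers 3 fell for HRAS+MYC against MYC and 1 for HRAS against MYC, and none rose. Among 6 neural stem and progenitor markers 1 rose and 3 fell for HRAS+MYC against MYC, and 2 rose and 3 fell for HRAS against MYC. Of 7 astrocyte markers 1 rose and 3 fell in either comparison. The mean over 9 fibroblast and pericyte markers ran from 6.05 to 6.63 in HRAS cultures, against 5.52 to 5.76 in HRAS+MYC and 5.15 to 5.95 in MYC cultures. In HRAS then MYC cultures it ran from 6.39 to 6.80. The part of these markers' cells in the members' values was not tested.

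The remaining genes of the pathway were taken as 8 lists with 89 measured genes. Their counts stand beside the shares of all genes that rose and fell, 15.4% and 18.0% for HRAS against MYC and 15.8% and 18.4% for HRAS+MYC against MYC, and a count near these shares says nothing particular of a list. Among 20 phospholipases and related genes of arachidonate release, 3 rose and 2 fell for HRAS against MYC, and 4 rose and 2 fell for HRAS+MYC against MYC, of which no count was far above those shares. The list medians were 0.06 and 0.14, beside -0.03 and 0.03 for all genes. Pla2g7, which inactivates platelet-activating factor, averaged 10.71 ± 0.72 in HRAS and 10.64 ± 0.34 in HRAS+MYC cultures, against 5.06 ± 1.26 in MYC cultures (SD, n = 5, 7 and 6). It was thus 5.64 ± 0.41 and 5.58 ± 0.38 higher (adjusted p = 2.31e-11 and 4.47e-12). Mgll, a lipase that yields arachidonate from an endocannabinoid, fell by 2.25 ± 0.36 for HRAS+MYC against MYC (adjusted p = 1.32e-05).

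Of 7 other prostanoid synthases, none rose and 1 fell for HRAS against MYC, and 1 rose and 2 fell for HRAS+MYC against MYC, with list medians of -0.07 and 0.04. Akr1c18, a reductase that can make prostaglandin F2α, averaged 7.33 ± 1.94 in HRAS+MYC cultures, against 3.55 ± 0.18 in MYC cultures (SD, n = 7 and 6; adjusted p = 0.000293). Prxl2b, another prostaglandin F synthase, fell by 1.47 ± 0.18 in the same comparison (adjusted p = 1.51e-07) and by 1.63 ± 0.19 for HRAS against MYC (adjusted p = 1.40e-07). Ptgds, the prostaglandin D synthase of the brain, averaged 6.65 ± 0.09 in HRAS+MYC cultures, against 8.05 ± 0.95 in MYC cultures (SD, n = 7 and 6; adjusted p = 0.0001). Cbr1, which converts prostaglandin E2 to F2α, fell by 1.60 ± 0.24 for HRAS then MYC against HRAS (adjusted p = 5.04e-05).

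Of 5 genes of breakdown and transport, 2 rose and none fell for HRAS against MYC and for HRAS+MYC against MYC, with list medians of 0.26 and 0.64. Ptgr1, a reductase that inactivates prostaglandins, rose in both, by 3.65 ± 0.42 and 3.61 ± 0.38 (adjusted p = 8.52e-08 and 1.86e-08). Slco2a1, the transporter that takes prostaglandins up, rose by 2.22 ± 0.36 for HRAS against MYC (adjusted p = 1.70e-05) and fell by 3.06 ± 0.50 for HRAS+Bmi1 against HRAS (adjusted p = 0.000300). Abcc4, which exports prostaglandin E2, rose by 1.36 ± 0.32 for HRAS+MYC against MYC (adjusted p = 0.00116) and fell by 1.62 ± 0.46 for HRAS then MYC against HRAS+MYC (adjusted p = 0.0180).

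Among 6 other prostanoid receptors, 1 rose for HRAS against MYC and 2 for HRAS+MYC against MYC, and none fell, with list medians of 0.08 and 0.20. Ptgfr, the prostaglandin F receptor, averaged 8.09 ± 1.19 in HRAS cultures, against 4.19 ± 0.35 in MYC cultures (SD, n = 5 and 6; adjusted p = 8.26e-08). It averaged 8.55 ± 0.12 in HRAS then MYC cultures, against 5.79 ± 1.11 in HRAS+MYC cultures (SD, n = 2 and 7; adjusted p = 0.00199). Pparg, a nuclear receptor that a prostaglandin D2 product activates, averaged 7.75 ± 0.31 in HRAS+MYC cultures, against 5.65 ± 0.33 in HRAS cultures (SD, n = 7 and 5; adjusted p = 2.68e-07) and 5.36 ± 0.06 in HRAS then MYC cultures. Like Ptgs2, it passed as higher in MYC then HRAS than in HRAS then MYC cultures (1.80 ± 0.41, adjusted p = 0.00991), whereas Ptgfr fell by 2.95 ± 0.74 there (adjusted p = 0.0209).

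Of 12 genes of the lipoxygenase and leukotriene branch, 3 rose for HRAS against MYC and 2 for HRAS+MYC against MYC, and none fell, with list medians of 0.05 and 0.15. Alox15, a lipoxygenase that also uses arachidonate, averaged 7.66 ± 1.46 in HRAS+MYC cultures, against 5.15 ± 0.21 in HRAS cultures (SD, n = 7 and 5; adjusted p = 5.36e-05). Lta4h, which makes leukotriene B4, rose by 0.86 ± 0.14 for HRAS then MYC against HRAS (adjusted p = 0.000201).

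Of 16 regulators of Ptgs2 transcription and mRNA stability, 7 rose and 2 fell for HRAS against MYC, and 10 rose and 2 fell for HRAS+MYC against MYC, with list medians of 0.66 and 0.47 beside -0.03 and 0.03 for all genes. Celf2, an RNA-binding protein known to bind COX-2 mRNA and hold back its translation, averaged 5.30 ± 0.34 in HRAS+MYC cultures, against 7.68 ± 0.68 in HRAS and 9.82 ± 0.12 in MYC cultures (SD, n = 7, 5 and 6). It was 9.54 ± 0.21 in HRAS+Bmi1 cultures, 1.86 ± 0.38 above HRAS cultures (adjusted p = 0.00319). Cebpb, a factor that can act on the Ptgs2 promoter, rose by 1.50 ± 0.17 for HRAS+MYC against MYC (adjusted p = 5.29e-08) and fell by 0.97 ± 0.25 for HRAS+Bmi1 against HRAS (adjusted p = 0.0200). Il1rn, the antagonist of the interleukin 1 receptor, rose by 2.50 ± 0.37 for HRAS+MYC against MYC (adjusted p = 3.76e-06), and Jun, a subunit of AP-1, by 2.13 ± 0.31 for HRAS against MYC (adjusted p = 2.95e-06).

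**Figure D5:**
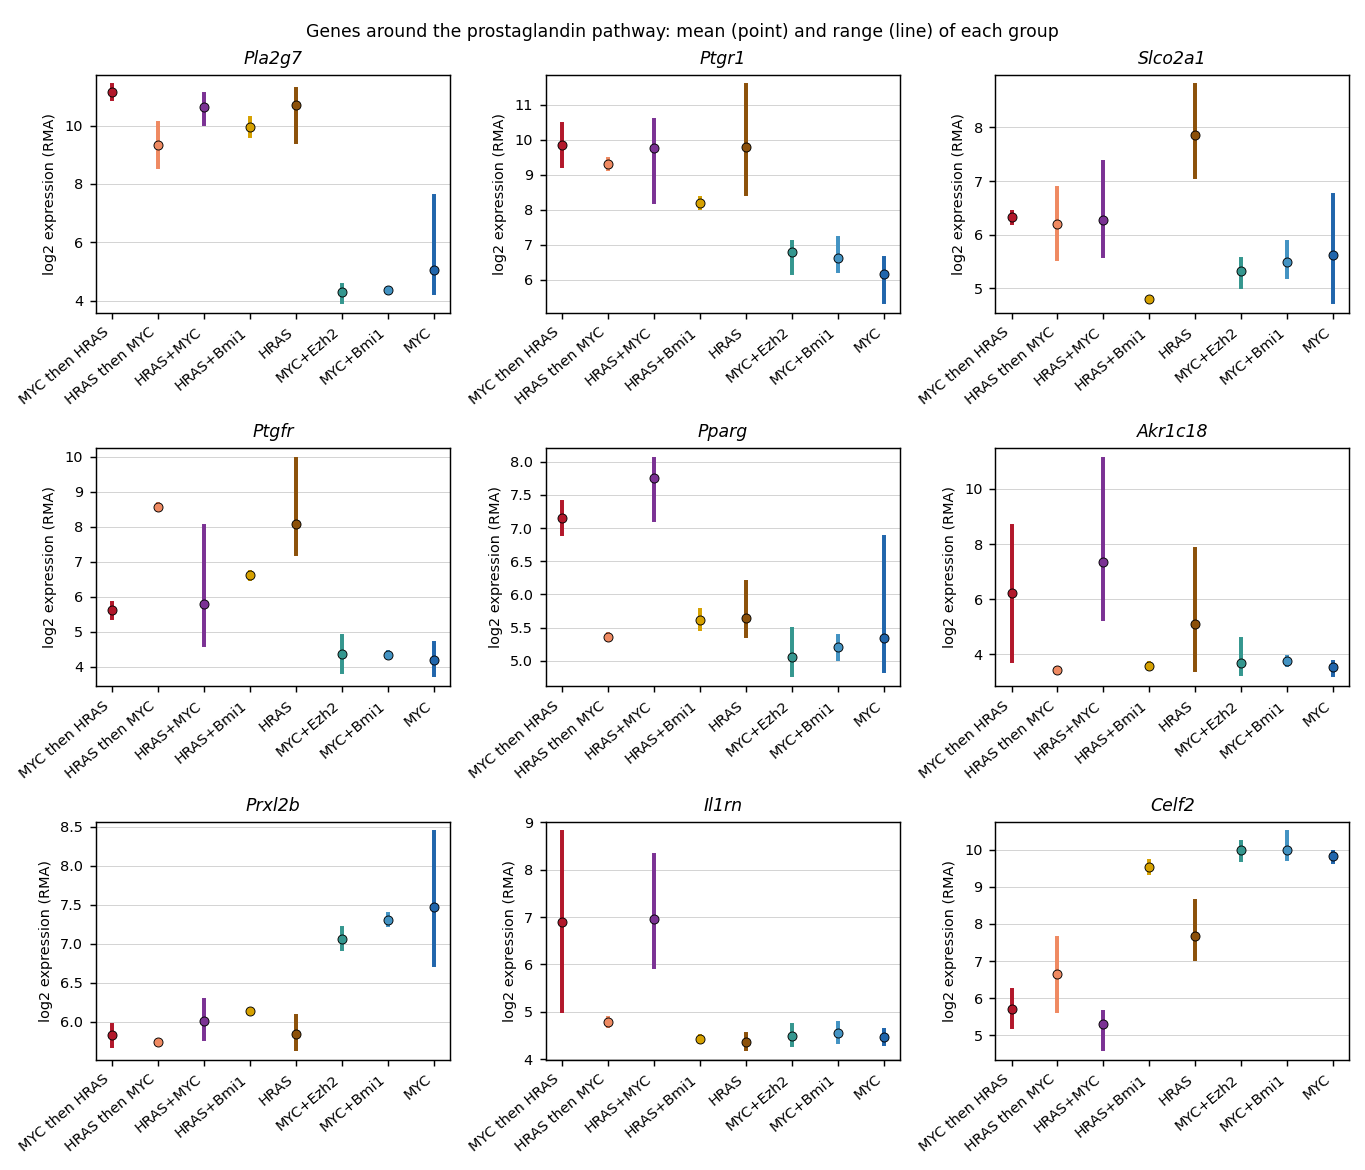
Group mean (points) and range over cultures (bars) of the log2 RMA value of 9 other pathway genes in the 8 groups. Pla2g7 and Ptgr1 lie at 8.566 and 8.061 or higher in cultures with HRAS and at 7.601 and 7.203 or lower in those without, Ptgfr is highest in HRAS then MYC cultures, and Celf2 is lowest in HRAS+MYC cultures (mean 5.30).

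Among 16 genes of cyclic AMP signalling, downstream of Ptger2 and Ptger4, 6 rose and 4 fell for HRAS against MYC, and 1 rose and 5 fell for HRAS+MYC against HRAS, where 11.7% of all genes rose and 13.0% fell. The list medians were 0.04 and 0.12, the second above 0 although more of its genes fell. Prkacb, a catalytic subunit of protein kinase A, fell for HRAS+MYC against HRAS by 1.31 ± 0.13 (adjusted p = 1.59e-08), and Prkar1a, a regulatory subunit, by 0.61 ± 0.11 (adjusted p = 0.000144). Arrb1, beta-arrestin 1, which binds active receptors, rose by 1.82 ± 0.41 for HRAS+Bmi1 against HRAS (adjusted p = 0.00633). Of 7 genes for Hsp90 and its co-chaperones, the partners of Ptges3, 4 rose and none fell for HRAS+MYC against HRAS. For HRAS then MYC against HRAS, 2 rose and none fell, where 6.30% of all genes rose (12.4% centred on array medians). For HRAS+MYC against MYC, 2 rose and none fell, where 15.8% rose. For HRAS against MYC, none rose and 2 fell, where 18.0% fell. Ahsa1, which activates Hsp90, rose by 0.74 ± 0.18 for HRAS then MYC against HRAS (adjusted p = 0.00618).

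The genes whose pattern over the 32 arrays was most like that of Ptgs2 were Ereg (r = 0.969), Ier3 (0.957), Zbtb7a (0.953), Oaf and Niban1 (both 0.949). Most of this likeness lay between groups, since after group means were taken off r was 0.356 for Ereg and 0.637 for Ier3. Nearest to Ptges were Axl and Pxdn (both r = 0.914), Spink2, Runx1 and Itga5, and nearest to Ptger4 were Ifit1 (r = 0.926), Lpin3, Foxo1, Oasl2 and Ifih1. Those nearest to Pla2g4a were Gli3 (r = 0.820), Egr1, Spry2, Ncoa4 and Ifitm3, and here r stayed at 0.750 for Gli3 and 0.844 for Spry2 after group means were taken off. That r is pooled over the groups and does not show likeness within each of them. Pla2g4a spread most in MYC, MYC+Ezh2 and MYC+Bmi1 cultures (SD 2.41, 1.74 and 1.54, against 0.42 in HRAS cultures). Ptgs2 and Pla2g4a are neighbouring protein-coding genes on chromosome 1 in RefSeq's order. Their values correlated at r = 0.579 over the 32 arrays and at r = 0.123 after group means were taken off, and for Ptgs2 with Ptges these were 0.698 and 0.082. The arrays share groups and oncogenes, so these are descriptions.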

How the data were processed

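The authors deposited log2 values of each probe set on each array. The submitters' processing notes name RMA and Affymetrix Expression Console 1.0. Total RNA was extracted from sorted tumour cells grown as neurospheres, per the labels' protocols. RMA gives every array nearly the same distribution, which hides any overall change of RNA and pulls weak probe sets towards a floor. No detection values or batches were used here. The number of arrays limits the precision.

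Of 35557 probe sets, 21789 had 1 gene symbol, 1621 had several and 12147 were not listed in the annotation. Probe sets with 1 symbol were used, and for genes with several (999 genes) the one with the highest mean. One linear model of the 8 group means was fitted to 19938 genes with limma 3.58.1 in R 4.3.3 (lmFit, contrasts.fit, eBayes), with Benjamini-Hochberg adjustment per comparison, which lends the spread of larger groups to those of 2 arrays. Promoters and gene order came from RefSeq (GRCm38.p6). The steps were tested on simulated data. The members, lists and tests were chosen with earlier results of these data known. From each list at most 3 genes per comparison qualified for naming, those with the largest difference among genes that passed and whose arrays did not overlap, and the text names a part of them. For likeness the 5 genes with the highest r were named, for members whose group means spanned 2 or more. Neurod1, Sox2 and Olig2 were named after their values were seen. Replicate numbers did not pair arrays: in none of 13 comparisons did every same-numbered pair correlate above 0.1. Alternatives were another choice of probe set, a filter on low values, median centring, another variance prior, smaller fits, the replicate block and leaving out arrays.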

Additional observations from a re-analysis of the deposited data

Results flagged for a closer look

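In 4 of 36 sets of member and group with 4 to 10 arrays, 1 array lay far from the others by Dixon's criterion, which chance meets in about 1 of 20 groups. Pla2g4a was 6.53 in HRAS+MYC replicate 1, against 8.79 to 9.62 in the other 6. Ptger2 was 6.58 in HRAS replicate 4, against 4.13 to 4.74 in the other 4. Ptger4 was 5.69 in MYC replicate 5, against 5.07 to 5.17 in the other 5. Ptger2 was 4.09 in MYC replicate 4, against 4.30 to 4.40 in the other 5. The last 2 lie in the MYC cultures with high Neurod1 and Ptger3.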

How the results depend on the processing

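Of 126 pairs of member and comparison, 21 passed, and 11 of these passed under every alternative run. Of 371 alternative values of the passed pairs, 337 kept direction and call, 34 lost the call and 0 reversed, and of 1846 values of the other pairs 22 passed. The number of the 9 members that passed moved with these settings. With only the groups compared in the fit it was 0 for HRAS+Bmi1 against HRAS (1 in the full fit), 0 for HRAS then MYC against HRAS (2), 2 for HRAS+MYC against HRAS+Bmi1 (1) and 2 for HRAS then MYC against HRAS+MYC (1). With the probe set of highest variance it was also 2 for HRAS then MYC against HRAS+MYC. With arrays centred on their medians it was 5 for HRAS+MYC against HRAS (3), with Ptges3 and Ptger1 added. Without MYC replicates 4 and 5 it was 4 for MYC then HRAS against MYC (2), with Ptges3 and Ptger3 added. The replicate block, used although the numbers did not pair the arrays (r between -0.301 and 0.343), gave 0 for MYC then HRAS against HRAS then MYC (1) and changed no other count by over 1.5 times. Leaving out 1 array gave 3 to 4 members for HRAS against MYC, 3 to 5 for HRAS+MYC against MYC (5 without MYC replicate 2, with Pla2g4a and Ptger3 added), 2 to 3 for HRAS+MYC against HRAS, 0 to 2 for HRAS+Bmi1 against HRAS, 0 to 3 for HRAS+Bmi1 against MYC+Bmi1, 1 to 3 for MYC then HRAS against MYC and for HRAS then MYC against HRAS, 0 to 1 for MYC then HRAS against HRAS then MYC, and no change elsewhere. Beyond fewer arrays and the loss of the other groups' spread in the smaller fits, the causes were not tested. The filter on low values kept 6 members. Groups of 2 arrays limit most of these calls.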
